A study of Mus musculus with 56 samples.

Results

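The 9 genes described here mark B and T lymphocytes in mouse visceral adipose tissue (VAT) and were measured by RNA sequencing in 56 mice. The B genes were Cd79a, Cd79b, Ms4a1 and Ighm, and the T genes were Cd3e, Cd3g, Cd4, Cd8a and Lck. They were chosen by name, as the rows of the deposited table whose Ensembl identifier maps to these symbols, and each of the 9 symbols matched 1 row of the 25939 genes. All 9 passed the filter of a mean of 10 reads per library, as did 17282 genes in all.

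The mice were female C57BL/6J mice, 9 weeks old at tissue collection, kept under 12 h of light and 12 h of dark on normal chow. After 7 days with free access to food they were fed for 7 days either by day (daytime-restricted feeding, DRF) or by night (nighttime-restricted feeding, NRF, the control). VAT was taken from 4 mice at each of ZT0, 4, 8, 12, 16, 20 and 24 under each regimen, where ZT0 is lights on and ZT0 and ZT24 are different mice. Each library is the poly(A) RNA of a whole piece of VAT of 1 mouse, so a marker gene reports cells mixed in with adipocytes, and fewer cells of a type cannot be told apart from less RNA per cell. The mice were housed in groups, and the labels name neither the fat depot nor the cage of a mouse.

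B lymphocytes carry on their surface an antibody, the B cell receptor, and T lymphocytes carry the T cell receptor. Both receptors bind antigen on the outside and depend on partner chains to pass the signal inward. Cd79a and Cd79b encode the signalling pair of the B cell receptor, Ms4a1 encodes CD20, a surface protein of B cells from the early stages until they become plasma cells, and Ighm encodes the constant part of the IgM heavy chain, which occurs in membrane form on B cells and in secreted form in plasma cells. Cd3e and Cd3g encode chains of the CD3 complex, the signalling partner of the T cell receptor. Cd4 and Cd8a encode the coreceptors of helper and of cytotoxic T cells, and Lck encodes the kinase that binds both coreceptors and starts T cell receptor signalling. In fat, lymphocytes sit in the stroma between adipocytes, in clusters attached to the mesothelial surface and in any lymph node left in the piece. Cd4 and Cd8a are not confined to T cells, since some myeloid cells carry them.

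Promoters of 5 of the 9 genes were found in the RefSeq table used here (build GRCm38.p6, 250 bases before to 50 bases after a start site). Cd79b, Ms4a1, Ighm and Cd4 were not among them. The promoter of Cd79a is shown because Cd79a varied together with 2 other B genes, and those of Cd3e and Cd3g because these genes lie side by side on chromosome 9 and encode parts of the same complex, yet their difference between regimens was not of the same size. The first lies at chr7:24897247-24897546 on the plus strand, the second at chr9:45009562-45009861 and the third at chr9:44980382-44980681, both on the minus strand. Each is written 5′ to 3′ in the direction of the gene, and capitals mark the letters AGGAAGT of ETS factors or CAGCTG, an E-box, on either strand.
Cd79a: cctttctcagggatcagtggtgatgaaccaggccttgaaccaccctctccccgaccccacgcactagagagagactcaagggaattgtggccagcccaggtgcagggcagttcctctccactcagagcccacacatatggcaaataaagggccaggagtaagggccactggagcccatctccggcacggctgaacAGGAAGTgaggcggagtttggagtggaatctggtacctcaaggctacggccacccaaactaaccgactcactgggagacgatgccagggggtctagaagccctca
Cd3e: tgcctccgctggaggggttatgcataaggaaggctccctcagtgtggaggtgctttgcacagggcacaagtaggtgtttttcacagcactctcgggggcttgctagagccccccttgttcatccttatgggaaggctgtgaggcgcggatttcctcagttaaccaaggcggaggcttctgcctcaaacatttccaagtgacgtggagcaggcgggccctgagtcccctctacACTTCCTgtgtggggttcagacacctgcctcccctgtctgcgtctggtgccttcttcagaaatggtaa
Cd3g: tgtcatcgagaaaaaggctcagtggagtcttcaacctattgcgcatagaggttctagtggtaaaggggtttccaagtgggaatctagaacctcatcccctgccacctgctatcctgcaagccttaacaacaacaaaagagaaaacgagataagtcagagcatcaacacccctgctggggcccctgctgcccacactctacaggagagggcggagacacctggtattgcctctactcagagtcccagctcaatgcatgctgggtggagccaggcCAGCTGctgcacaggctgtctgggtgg
The letters AGGAAGT occurred once in the window of Cd79a and once in that of Cd3e, and CAGCTG once in that of Cd3g. AGGAAGT occurs in 9.35% and CAGCTG in 16.3% of the 32851 promoters of the same length, so a match is a description of these windows only. The palindromic EBF1 motif (in 0.904% of promoters), ATGCAAAT (the octamer; 1.74%) and TGTGGT (RUNX; 16.8%) did not occur in these 3 windows on either strand, and no motif overlapped another. AGGAAGT and CAGCTG were added after the sequences had been read.

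Reads assigned to genes ranged from 29766912 to 40422594 per library (median 34081926). Levels are in CPM, the read count of a gene scaled to a common library size, and 1 read was worth 0.0211 to 0.0315 CPM. The B genes other than Ighm had medians of 72.5 to 90.0 reads per library and the T genes 12.5 to 56.0 reads, so counting error alone is wide for Cd3e (3 to 33 reads) and Cd8a (3 to 40 reads). Per kb of exon, Ighm was by far the most abundant of the 9, with a mean of 58.3 CPM per kb, which is 34.9 times that of Cd79a (1.67 CPM per kb). Cd79b had 1.86, Lck 0.538, Ms4a1 0.356, Cd4 0.244, Cd3g 0.216, Cd8a 0.109 and Cd3e 0.0886 CPM per kb. Exons of Cd3e overlap those of a gene on the opposite strand (Gm48719) and those of Lck hold a microRNA gene (Mir8119), and the library kit is named without a step that marks strand. Exons of the other 7 genes overlap no other gene in the annotation used.

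Several libraries bear on these genes. The DRF libraries ZT8 replicate 1 and ZT0 replicate 4 had median correlations of 0.945 and 0.937 with the other libraries, against 0.970 to 0.988 for the other 54, and their 8 adipocyte genes summed to 16256 and 22676 CPM, against 30527 to 51788 CPM. DRF ZT8 replicate 1 had the highest Lck and Cd3g of all 56 libraries. It also had the highest sum of plasma cell genes (219 CPM) and the lowest sums of macrophage genes (883 CPM) and lymph node genes (4.08 CPM). NRF ZT8 replicate 2 had the highest Cd79a and Cd79b, and also the highest sum of 12 macrophage genes (2515 CPM, against at most 1980 CPM in the others). It ranked 2 of 56 for summed lymph node stroma and venule genes (21.7 CPM) and 4 of 56 for mesothelial genes (691 CPM). The part of these libraries in the results was not tested beyond leaving them out, and values without them are given where they change a call. Deviations of same-numbered mice did not go together, so the replicate numbers were not used to pair mice.

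The question of the regimen comparison was whether the lymphocyte genes differ in level between mice fed by day and by night. In limma, allowing each regimen its own 24-h curve, 3 of the 9 genes were lower under DRF at an adjusted p under 0.05 and 0 were higher, while 16.1% of all genes tested were lower and 17.2% were higher. The 3 were Ighm among the 4 B genes, and Cd4 and Cd3g among the 5 T genes. The median difference of the B genes was -0.12 and that of the T genes -0.14 on the log2(CPM + 1) scale, against -0.0035 over all genes tested. That scale adds 1 CPM to each value and understates the change of genes near or below 1 CPM, which bears most on Cd3e, Cd8a, Cd3g and Cd4. With 0.1 CPM added instead, the differences were -0.61 for Ighm, -0.43 for Cd4, -0.40 for Cd3g, -0.23 for Lck, -0.19 for Cd8a and -0.09 for Cd3e, and the same 3 genes were called. With voom weights on the reads, Cd4 was at -0.45 and Cd3g at -0.42.

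Ighm lies on chromosome 12 (113418558 to 113422730, minus strand of GRCm38, exons of 1886 bases). Its level under NRF ran from 72.3 to 230.8 CPM with a median of 123.2 CPM over 28 mice, and under DRF from 49.5 to 195.6 CPM with a median of 80.4 CPM. Of the 28 DRF mice, 26 were below the NRF median, although the ranges overlap. The means were 134 ± 41.7 CPM under NRF and 86.1 ± 28.7 CPM under DRF (SD, n = 28), a mean 35.7% lower, and the fitted difference was -0.60 ± 0.11 (log2, SE; limma adjusted p = 3.3e-05). The mean was lower under DRF at 7 of 7 time points, and the call held in each of the 16 fits made. Permuting the regimen labels within time points gave p = 1e-05, the smallest that 100000 permutations can give.

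The group means of Ighm over the day were as follows. Under NRF it averaged 147 ± 59.5 CPM at ZT0, 179 ± 23.0 at ZT4, 120 ± 19.6 at ZT8, 106 ± 37.3 at ZT12, 109 ± 28.2 at ZT16, 165 ± 39.0 at ZT20 and 110 ± 19.5 at ZT24 (SD, n = 4). Under DRF it averaged 79.7 ± 26.1 CPM at ZT0, 75.4 ± 16.7 at ZT4, 107 ± 62.4 at ZT8, 80.2 ± 19.9 at ZT12, 78.1 ± 8.39 at ZT16, 83.8 ± 16.6 at ZT20 and 98.2 ± 26.3 at ZT24. The NRF groups at ZT4, ZT20 and ZT0 were the highest 3 of the 14, and 6 of the 7 lowest groups were DRF groups.

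At ZT4 the NRF mice had 155.5, 173.2, 178.4 and 210.7 CPM of Ighm and the DRF mice 51.6, 76.4, 84.4 and 89.1 CPM, so the groups did not overlap (-1.26 ± 0.27, limma adjusted p = 0.00044; exact permutation p = 0.0286, the smallest that 4 against 4 allows). At ZT20 they did not overlap either, with 130.3 to 220.4 CPM under NRF and 68.9 to 102.6 CPM under DRF (-0.96 ± 0.27, limma adjusted p = 0.0081; exact permutation p = 0.0286). At ZT0 the groups overlapped, and the difference passed in limma (-0.86 ± 0.27, adjusted p = 0.025) but not in the exact permutation test (p = 0.0857). The limma call at ZT0 was lost without the 2 DRF libraries that stood apart, with the lymph node covariate (adjusted p = 0.056), and without replicate 1, 2 or 4. That at ZT20 was lost without replicate 2 (adjusted p = 0.063), and that at ZT4 held in each fit made. At ZT8, ZT12, ZT16 and ZT24 the fitted differences were -0.31, -0.38, -0.45 and -0.18, none past the threshold. ZT24 is the same hour of the light cycle as ZT0 in other mice, so the ZT0 call was not repeated there (limma adjusted p = 0.71). Of all genes, 8.53% were called lower under DRF at ZT0, 14.8% at ZT4, 11.4% at ZT8, 11.3% at ZT12, 8.31% at ZT16, 10.8% at ZT20 and 8.90% at ZT24, and the groups did not overlap, with DRF lower, for 16.7% at ZT4 and 14.4% at ZT20. The 24-h cosine of Ighm did not differ between regimens at the threshold (limma F test, adjusted p = 0.49), and whether the regimen difference itself varied over the 7 time points was not tested.

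**Figure D1:**
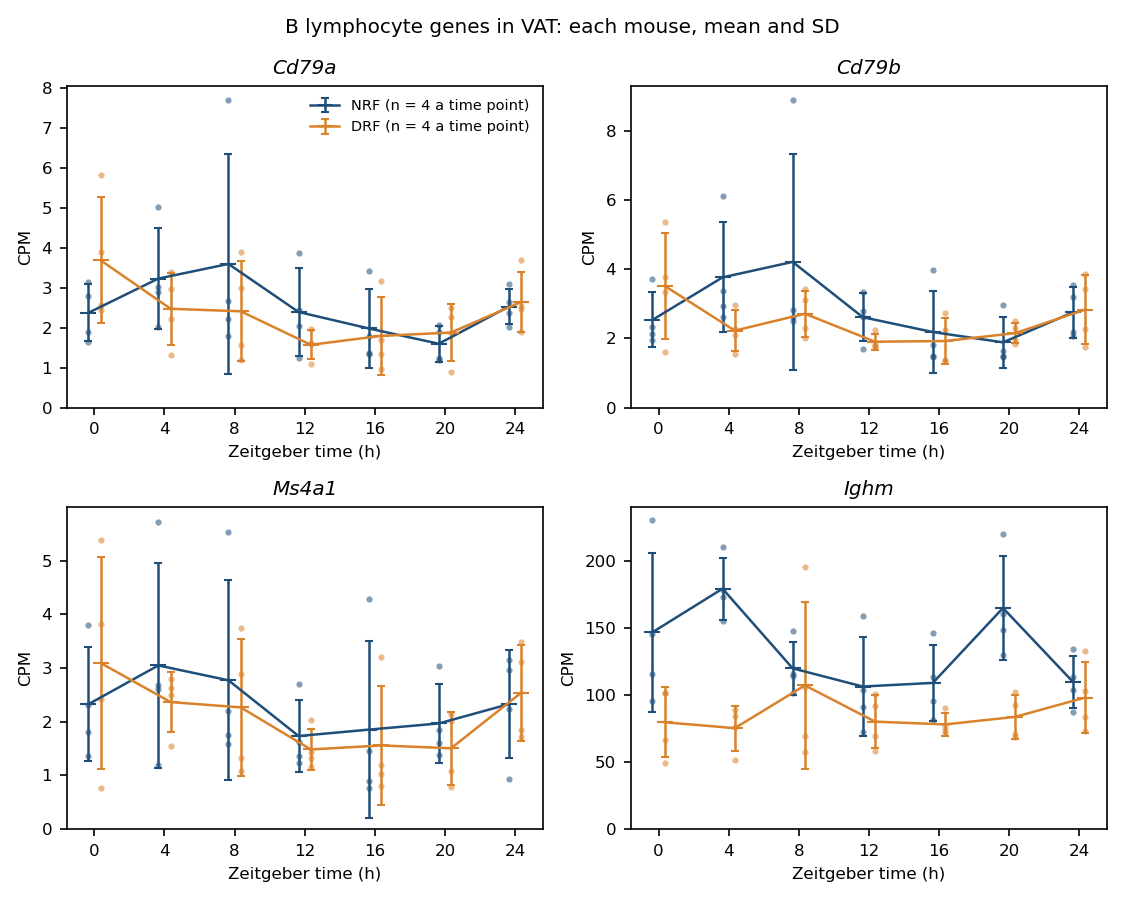
CPM of Cd79a, Cd79b, Ms4a1 and Ighm (vertical axes, each with its own scale from 0) against zeitgeber time in hours; each point is 1 mouse, and lines with bars give the mean and SD of 4 mice under NRF (blue) and DRF (orange). For Ighm the NRF means of 106 to 179 CPM lie above the DRF mean at every time point, while the lines of the other 3 genes cross and the NRF mouse at 8.90 CPM of Cd79b at ZT8 stands apart.

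The other 3 B genes did not show this. Cd79a lies on chromosome 7 (24897381 to 24902197, plus strand), Cd79b on chromosome 11 (106311341 to 106314762, minus strand) and Ms4a1 on chromosome 19 (11249675 to 11266241, minus strand). Cd79a ran from 1.187 to 7.70 CPM under NRF (median 2.14) and from 0.880 to 5.83 CPM under DRF (median 2.23), so the ranges overlap. Its fitted difference was -0.11 ± 0.11 (limma adjusted p = 0.46). Cd79b ran from 1.46 to 8.90 CPM under NRF (median 2.62) and from 1.34 to 5.35 CPM under DRF (median 2.27), with a difference of -0.14 ± 0.10 (limma adjusted p = 0.27). Ms4a1 ran from 0.766 to 5.72 CPM under NRF (median 1.83) and from 0.763 to 5.38 CPM under DRF (median 1.93), with a difference of -0.09 ± 0.13 (limma adjusted p = 0.63). DRF was lower at 4 of 7 time points for Cd79a and Cd79b and at 5 of 7 for Ms4a1. A missed threshold does not show that the levels were equal. Without NRF ZT8 replicate 2 the differences were -0.06 for Cd79a, -0.09 for Cd79b and -0.04 for Ms4a1, none called. With the mean of Cxcl13 and Chst4, 2 genes of the lymph node list, as a covariate, the 3 differences turned to 0.04, 0.01 and 0.14, none called.

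The difference between Ighm and its 3 partners was itself tested, by permuting regimen labels within time points on the per-mouse difference of log2(CPM + 1). Ighm was lower under DRF relative to Cd79a by -0.56, to Cd79b by -0.52 and to Ms4a1 by -0.56 (adjusted permutation p = 0.0017 for each, over 5 such comparisons, chosen after the values were seen).

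Over the day, the group means of these 3 genes were as follows. Cd79a averaged 2.37, 3.23, 3.59, 2.39, 1.98, 1.60 and 2.53 CPM under NRF from ZT0 to ZT24, with SDs of 0.448 to 2.76 CPM, and 3.68, 2.47, 2.41, 1.57, 1.79, 1.88 and 2.64 CPM under DRF, with SDs of 0.360 to 1.57 CPM (n = 4). Cd79b averaged 2.53, 3.76, 4.21, 2.61, 2.18, 1.89 and 2.75 CPM under NRF, with SDs of 0.688 to 3.13 CPM, and 3.52, 2.22, 2.71, 1.90, 1.92, 2.15 and 2.83 CPM under DRF, with SDs of 0.236 to 1.54 CPM. Both were highest at ZT0 under DRF. Under NRF both were highest at ZT8, but without NRF ZT8 replicate 2 those means fell to 2.22 ± 0.428 CPM for Cd79a and 2.65 ± 0.170 CPM for Cd79b (SD, n = 3), below ZT4. Ms4a1 averaged 2.33, 3.05, 2.77, 1.73, 1.85, 1.97 and 2.33 CPM under NRF, with SDs of 0.671 to 1.91 CPM, and 3.10, 2.37, 2.27, 1.48, 1.56, 1.51 and 2.54 CPM under DRF, with SDs of 0.379 to 1.97 CPM. Its highest mean was at ZT4 under NRF and at ZT0 under DRF, and the order of its groups rests on SDs that exceed every step between neighbours.

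Whether these genes cycle was asked with JTK_CYCLE and Lomb-Scargle combined. The study names MetaCycle, a package that offers these methods, and they were rewritten here. It called 0 of the 9 genes under NRF, where 37.0% of all genes were called, and 0 of 9 under DRF, where 21.2% were called. At an unadjusted p under 0.05 it gave 1 gene under NRF, namely Lck, and 0 under DRF. The adjusted p of Lck under NRF was 0.10, and by JTK_CYCLE alone 0.053. Lck passed under NRF without replicate 1 (adjusted p = 0.025), and Cd79a passed without replicate 3 (adjusted p = 0.047). The limma F test of a 24-h cosine called Cd79a (adjusted p = 0.030) and Cd79b (adjusted p = 0.0060) under NRF, where 49.5% of all genes passed, and Cd79a (adjusted p = 0.036) under DRF, where 40.1% passed. The fitted amplitudes of Cd79a were 0.34 under NRF and 0.31 under DRF on the log2 scale, with peaks at 5.99 h and 1.99 h. Those of Cd79b were 0.38 and 0.21, with peaks at 6.20 h and 2.10 h. The regimen-by-rhythm F test called 0 of 9 genes (lowest adjusted p = 0.10, Cd79b; 0 at an unadjusted p under 0.05), against 51.2% of all genes. Without NRF ZT8 replicate 2, the mouse with 364 reads of Cd79a and 421 of Cd79b, Cd79b stayed called under NRF (adjusted p = 0.030) and Cd79a did not.

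Among the T genes, the coreceptor of helper cells and a CD3 chain were lower under DRF. Cd4 (chromosome 6, 124864692 to 124888221, minus strand) ran from 0.487 to 1.56 CPM under NRF with a median of 1.14 CPM, and from 0.307 to 1.66 CPM under DRF with a median of 0.765 CPM. The ranges overlap, with 23 of 28 DRF mice below the NRF median, and DRF was lower at 7 of 7 time points. The means were 1.13 ± 0.290 and 0.843 ± 0.325 CPM (SD, n = 28), a mean 25.2% lower under DRF, and the fitted difference was -0.22 ± 0.06 (limma adjusted p = 0.0031). Cd4 passed at 0 of 7 single time points in limma, and its groups overlapped at each of them. The unadjusted limma p was under 0.05 at ZT16 alone (-0.34 ± 0.16).

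Cd3g (chromosome 9, 44969572 to 44980431, minus strand) ran from 0.365 to 1.15 CPM under NRF (median 0.858) and from 0.298 to 1.44 CPM under DRF (median 0.586). The highest DRF value, in ZT8 replicate 1, exceeded every NRF value, but 24 of 28 DRF mice were below the NRF median. The means were 0.818 ± 0.239 and 0.597 ± 0.243 CPM (SD, n = 28), a mean 27.1% lower under DRF, with a fitted difference of -0.18 ± 0.06 (limma adjusted p = 0.010). At ZT4 the DRF mice had 11 to 21 reads and 0.335 to 0.617 CPM and the NRF mice 28 to 42 reads and 0.695 to 1.08 CPM, without overlap (-0.38 ± 0.14, limma adjusted p = 0.040; exact permutation p = 0.0286). At ZT4, 14.8% of all genes were called lower and 16.7% did not overlap with DRF lower. This call was lost with no filter on low genes (adjusted p = 0.054) and without replicate 2, 3 or 4. Leaving out all mice numbered 2 or all numbered 3 ended the calls of Cd4 and Cd3g, with adjusted p of up to 0.15, while both differences stayed negative.

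Lck (chromosome 4, 129548344 to 129573641, minus strand) was not called over all 56 mice (-0.14 ± 0.07, limma adjusted p = 0.13). It ran from 1.03 to 2.80 CPM under NRF (median 1.63) and from 0.717 to 4.34 CPM under DRF (median 1.35), where the mouse at 4.34 CPM, with 187 reads, is DRF ZT8 replicate 1. Without that library, added as an alternative after the data were seen, the difference was -0.19 and passed (limma adjusted p = 0.0075). At ZT24 the DRF mice had 0.921 to 1.45 CPM and the NRF mice 1.60 to 2.37 CPM, without overlap, as for 10.3% of all genes (-0.44 ± 0.18, limma adjusted p = 0.077; exact permutation p = 0.0286), and without DRF ZT8 replicate 1 this difference passed (adjusted p = 0.028). At ZT8 the order was the other way, at 2.21 ± 1.51 CPM under DRF and 1.36 ± 0.137 under NRF, with overlap (exact permutation p = 0.37).

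Cd8a (chromosome 6, 71373427 to 71379173, plus strand) and Cd3e (chromosome 9, 44998740 to 45009627, minus strand) were the lowest of the 9. Cd8a ran from 0.137 to 0.968 CPM under NRF (median 0.387) and from 0.0836 to 0.692 CPM under DRF (median 0.367), with a difference of -0.07 ± 0.05 (limma adjusted p = 0.29). Cd3e ran from 0.188 to 0.886 CPM under NRF (median 0.335) and from 0.0882 to 0.705 CPM under DRF (median 0.333), with a difference of -0.03 ± 0.05 (limma adjusted p = 0.59). The ranges of the 2 regimens overlap for both genes. The mean under DRF was 19.3% lower for Cd8a and 8.95% lower for Cd3e. The difference between regimens was larger for Cd3g than for Cd3e by -0.16 (permutation within time points, adjusted p = 0.014), on a scale that understates the lower gene more. For Cd4 against Cd8a it was -0.13 (adjusted p = 0.084).

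The group means of the T genes over the day were as follows. Cd4 averaged 1.16, 1.26, 1.33, 1.03, 1.02, 0.913 and 1.17 CPM under NRF from ZT0 to ZT24, with SDs of 0.0521 to 0.446 CPM, and 0.990, 0.815, 1.03, 0.719, 0.610, 0.863 and 0.873 CPM under DRF, with SDs of 0.163 to 0.532 CPM (n = 4). Cd3g averaged 0.908, 0.865, 0.686, 0.906, 0.736, 0.703 and 0.923 CPM under NRF, with SDs of 0.142 to 0.320 CPM, and 0.702, 0.435, 0.785, 0.521, 0.642, 0.555 and 0.536 CPM under DRF, with SDs of 0.133 to 0.439 CPM. For both genes, 6 of the 7 highest group means were NRF groups.
Lck averaged 2.14, 1.66, 1.36, 1.40, 1.72, 1.64 and 1.97 CPM under NRF, with SDs of 0.137 to 0.569 CPM, and 1.54, 1.36, 2.21, 1.25, 1.14, 1.49 and 1.190 CPM under DRF, with SDs of 0.123 to 1.51 CPM. The DRF mean of Lck was highest at ZT8, but without DRF ZT8 replicate 1 it was 1.497 ± 0.625 CPM there (SD, n = 3), below ZT0. Cd8a averaged 0.449, 0.349, 0.418, 0.523, 0.435, 0.292 and 0.603 CPM under NRF, with SDs of 0.132 to 0.367 CPM, and 0.275, 0.403, 0.438, 0.462, 0.317, 0.246 and 0.335 CPM under DRF, with SDs of 0.0563 to 0.240 CPM. Cd3e averaged 0.282, 0.472, 0.339, 0.442, 0.359, 0.365 and 0.388 CPM under NRF, with SDs of 0.131 to 0.305 CPM, and 0.296, 0.377, 0.457, 0.339, 0.268, 0.267 and 0.406 CPM under DRF, with SDs of 0.0590 to 0.237 CPM. Ordered by level, all 13 steps between neighbouring groups were smaller than the larger of the 2 SDs, for each of the 9 genes. This held even for Ighm, whose ZT4 groups did not overlap, so it does not decide whether the genes had an order over the day.

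**Figure D2:**
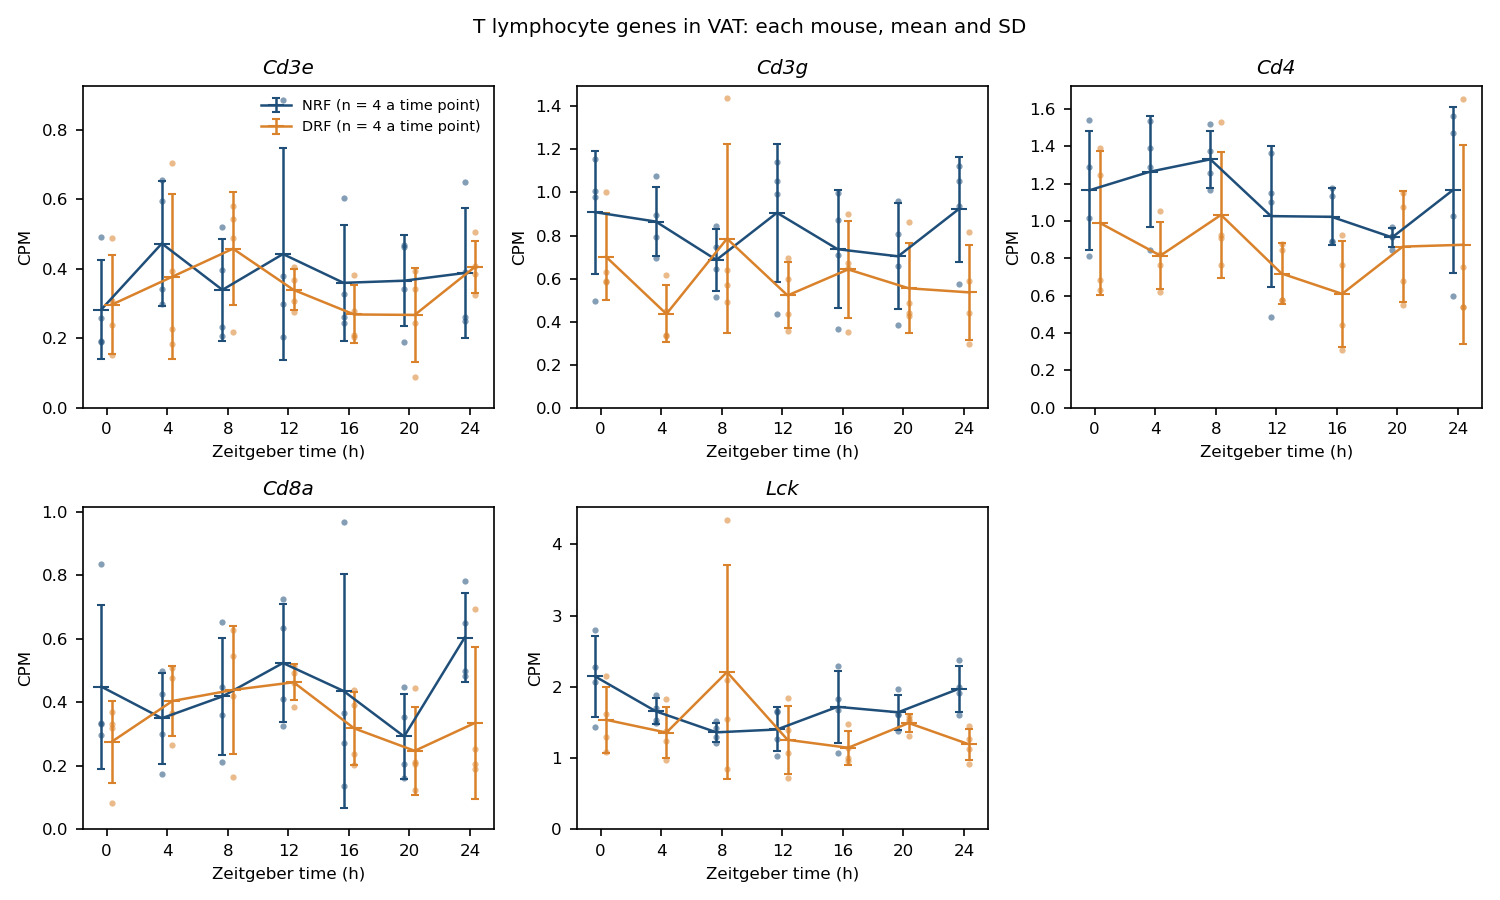
CPM of Cd3e, Cd3g, Cd4, Cd8a and Lck (vertical axes, each from 0) against zeitgeber time in hours; points are single mice, lines and bars the mean and SD of 4 mice under NRF (blue) and DRF (orange). Cd4 under NRF lies above DRF at 7 of 7 time points, Cd3g and Lck at 6 of 7, and the DRF mouse at 4.34 CPM of Lck at ZT8 stands apart.

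**Figure D3:**
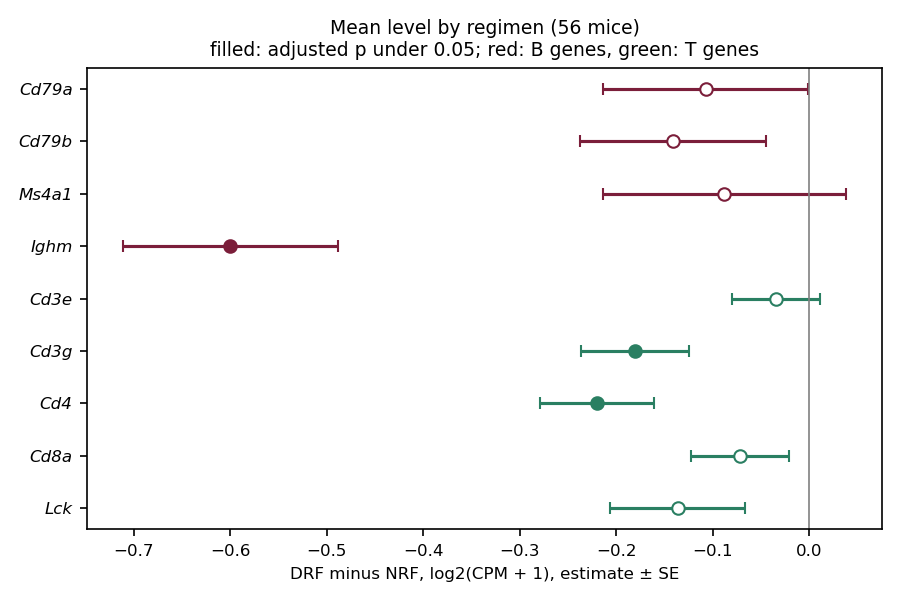
Fitted difference in mean level, DRF minus NRF on the log2(CPM + 1) scale, with its SE, for the 9 genes; filled points passed an adjusted p under 0.05 in limma over 56 mice. All 9 estimates are below 0, from -0.60 for Ighm to -0.03 for Cd3e, and 3 passed; the scale compresses genes near or below 1 CPM.

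The next question was which of the 9 genes go together from mouse to mouse. Cd79a, Cd79b and Ms4a1 did: the 3 pairs had Pearson's r of 0.82 to 0.85 and Spearman's rho of 0.77 to 0.80 over 56 libraries (adjusted permutation p = 9e-05 for each r, over 36 pairs of genes). The r were 0.78 to 0.79 without the 2 libraries farthest from the median, 0.81 to 0.88 in DRF, 0.78 to 0.90 in NRF and 0.81 to 0.84 for deviations from the group means. Ighm went with none of them at the threshold, with r of 0.13 to 0.24 (adjusted permutation p = 0.17 to 0.48) and rho of 0.10 to 0.23. Mice high in Cd79a were thus also high in Cd79b and Ms4a1 within regimens and within groups, while Ighm followed them only weakly.

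The T genes held together less. Of the 10 pairs, 5 passed on r: Cd3g with Lck (r = 0.56, rho = 0.50, adjusted permutation p = 9e-05), Cd3g with Cd4 (r = 0.53, rho = 0.53, p = 0.00014), Cd4 with Lck (r = 0.49, rho = 0.50, p = 0.00054), Cd3e with Cd8a (r = 0.40, rho = 0.38, p = 0.012) and Cd8a with Lck (r = 0.33, rho = 0.28, p = 0.044). The last did not pass on rho (adjusted permutation p = 0.13). Without the 2 farthest libraries these 5 had r of 0.45, 0.49, 0.55, 0.40 and 0.25. Within the regimens, Cd3g and Lck had r of 0.60 in DRF and 0.38 in NRF, Cd3g and Cd4 0.57 and 0.25, Cd4 and Lck 0.51 and 0.27, Cd3e and Cd8a 0.27 and 0.47, and Cd8a and Lck 0.35 and 0.23. At 3 to 40 reads, counting error limits any correlation with Cd3e or Cd8a.

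Between the 4 B and the 5 T members, most correlations were weak. Over 20 pairs, r ran from -0.17 to 0.38 with a median of 0.07, and 3 passed: Cd79b with Cd4 (r = 0.38, rho = 0.31, adjusted permutation p = 0.018), Ighm with Cd4 (r = 0.36, rho = 0.37, p = 0.027) and Ighm with Cd3g (r = 0.34, rho = 0.39, p = 0.037). For deviations from the group means these fell to 0.19, 0.10 and 0.12. In DRF they were 0.19, 0.02 and -0.13 and in NRF 0.53, 0.26 and 0.34, so the 2 relations of Ighm did not hold within DRF. The first did not pass on rho (adjusted permutation p = 0.072).

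**Figure D4:**
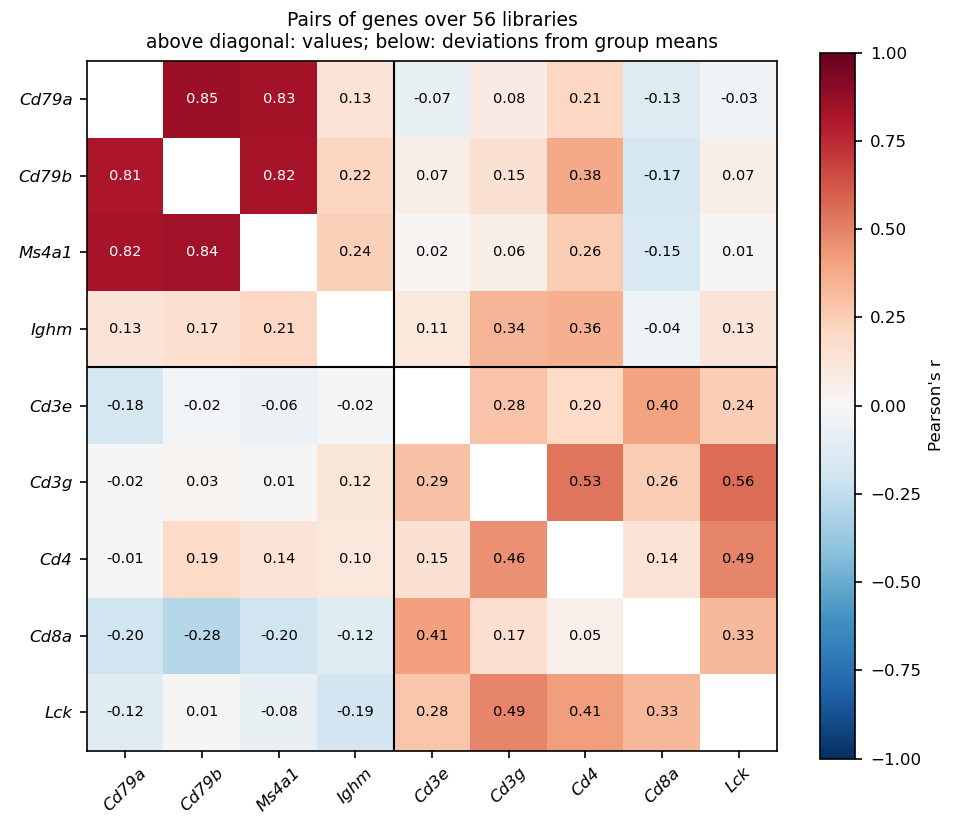
Pearson's r between each pair of the 9 genes on the log2(CPM + 1) scale over 56 libraries, with values above the diagonal and deviations from the 14 group means below it; black lines part the B genes from the T genes. The block of Cd79a, Cd79b and Ms4a1 stands at 0.81 to 0.85, and the row of Ighm stays at or below 0.36.

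**Figure D5:**
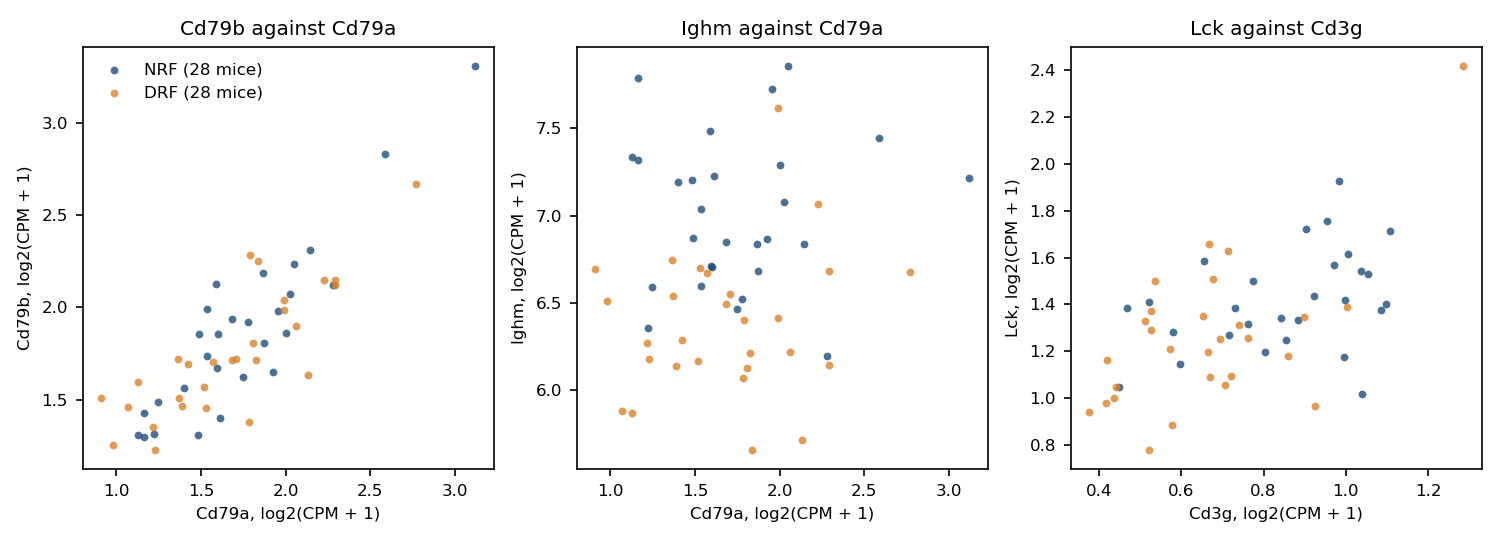
Cd79b and Ighm against Cd79a, and Lck against Cd3g, on the log2(CPM + 1) scale; each point is 1 mouse, in blue for NRF and orange for DRF (28 mice each). The first pair forms a narrow band (r = 0.85) in both regimens, the second has NRF mice mostly above DRF mice and little slope (r = 0.13), and the third a loose band (r = 0.56).

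By a fixed rule, the genes whose values were most like the mean of the 4 B genes over 56 libraries included Lyz2 (r = 0.86), Pax5 (0.78), Msr1 (0.77), Saa3 (0.77), Ly6d (0.76), Plek (0.76) and Spib (0.75). Pax5 and Spib encode B cell transcription factors. Lyz2 (lysozyme) and Msr1 (a scavenger receptor) are genes of macrophages, and Saa3 encodes an acute phase protein. Of these 7, Plek passed the regimen test (-0.19 ± 0.07, limma adjusted p = 0.035), and Pax5 and Spib had differences of -0.05 and -0.08 (adjusted p = 0.65 and 0.57). For the mean of the 5 T genes the 8 were Ms4a4b (r = 0.79), Il2rb (0.77), Ccl5 (0.76), Fam171b (0.71), Tmem229b (0.70), Lax1 (0.70), Klri2 (0.70) and Arhgap6 (0.69). Il2rb encodes a chain of the interleukin-2 receptor and Ccl5 a chemokine of activated T and NK cells. Ccl5 passed the regimen test (-0.28 ± 0.07, adjusted p = 0.0025), as did Fam171b, Tmem229b, Lax1 and Arhgap6, all lower under DRF, while Ms4a4b, Il2rb and Klri2 did not (adjusted p = 0.068 to 0.67). Among all genes tested, 16.1% were lower under DRF. Both sets were chosen by r over mice of both regimens, so a regimen difference in the B or T mean enters the choice. Their regimen calls are therefore no separate evidence.

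The piece of fat may hold lymph node tissue, so lymph node stroma genes were read beside the members. Of 7 such genes 4 were in the table, and the 2 below the filter are named after their values were seen. Ccl21a, the chemokine of lymph node stroma and high endothelial venules, had 0 to 4 reads per library and 0 reads in 37 of 56 libraries (a count of 0 allows up to 3 reads, for counting error only), and Madcam1, an adhesion molecule of venules, had 0 to 22 reads. The other 2, Cxcl13 and Chst4, passed the filter. Both differed in rhythm between regimens (limma F test, adjusted p = 0.035 and 0.00011), as did 51.2% of all genes. Cxcl13, the chemokine that draws B cells into follicles, was 10.2 CPM under NRF and 8.61 CPM under DRF on average (-0.33 ± 0.13, limma adjusted p = 0.051), and Chst4, a sulphotransferase of high endothelial venules, was 4.74 and 3.53 CPM (-0.27 ± 0.11, adjusted p = 0.045). The 4 genes summed to 6.96 to 23.9 CPM per NRF library (median 15.2) and 4.08 to 20.6 CPM per DRF library (median 12.7). The sum of Cxcl13 and Chst4 exceeded 3 scaled median absolute deviations above the median in 0 of 56 libraries.

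The mean of the 4 B genes had r of 0.45 and rho of 0.44 with the mean of Cxcl13 and Chst4 over 56 libraries, and r of 0.69 for deviations from the group means. The mean of the 5 T genes had r of 0.03 and rho of 0.15 with it. That r was -0.41 in DRF, 0.22 in NRF and 0.25 without the 2 farthest libraries. The mean of Cd79a, Cd79b and Ms4a1 had within-group r of 0.77 with Cxcl13, 0.42 with Chst4, 0.80 with the macrophage gene Lyz2 and 0.67 with the mesothelial gene Upk3b. Ighm had within-group r of 0.37 with Cxcl13, 0.01 with Chst4, 0.46 with Lyz2 and 0.25 with Upk3b. These are descriptions, for genes partly picked after their values were seen, and the part of tissue makeup in them was not tested. With the mean of Cxcl13 and Chst4 as a covariate, the 3 level calls stood (Ighm, Cd4 and Cd3g). Both covariate genes differed in rhythm between regimens, and whether they track lymph node tissue was not tested. With this covariate the cosine F test called Cd79a, Cd79b and Ms4a1 in both regimens, with a rhythm difference for Cd79a (limma adjusted p = 0.035) and Cd79b (adjusted p = 0.022). In that fit 9090 of the 17282 genes passed under NRF, 7680 under DRF and 9209 in the rhythm difference, so these counts of members are not above the background.

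Other genes of B cells were read beside the members. Of 32 genes of the B cell receptor and of B cells, 31 were tested, 7 were lower under DRF, 0 were higher and 24 were not called (median -0.06), where 16.1% of all genes were lower. Among the 5 of highest level, Igkc, the kappa light chain, was 38.6 CPM under NRF and 27.7 CPM under DRF (-0.50 ± 0.13, limma adjusted p = 0.0024), and Swap70 passed (-0.12 ± 0.05, adjusted p = 0.030). Ebf1 (-0.06 ± 0.06), Lyn (0.14 ± 0.07) and Syk (-0.11 ± 0.06) did not pass, and these 3 are also used outside B cells. The 5 others that passed, chosen after their values were seen, were Iglc2, a lambda light chain (-0.38), Ly86 (-0.45), Cd180 (-0.24), Bank1 (-0.22) and Btk (-0.17), of which Ly86, Cd180 and Btk are also genes of myeloid cells. Chosen in the same way, the immunoglobulin genes Ighd (-0.14 ± 0.07, adjusted p = 0.081) and Iglc1 (-0.31 ± 0.14, adjusted p = 0.087) did not pass.

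Of 12 genes of plasma cells, the antibody-secreting descendants of B cells, 11 were tested. Of these 11, 6 were lower under DRF and 0 were higher (median -0.18), where 16.1% of all genes were lower. Irf4, a transcription factor of plasma cells and of other immune cells and adipocytes, was 26.4 CPM under NRF and 12.9 CPM under DRF (-0.93 ± 0.11, limma adjusted p = 5.8e-09), while Sdc1, the surface marker CD138, which epithelial cells also carry, did not pass (-0.07 ± 0.09). Chosen after its values were seen, Jchain, which joins IgM and IgA into polymers, was 17.5 CPM under NRF and 11.01 CPM under DRF (-0.65 ± 0.14, adjusted p = 0.00022). The 5 genes not called included Prdm1 (0.24 ± 0.12, limma adjusted p = 0.13) and Mzb1 (-0.07 ± 0.07, adjusted p = 0.48), chosen in the same way. Over 56 libraries Ighm had r of 0.61 with Jchain and 0.59 with Igkc (0.37 and 0.45 for deviations from the group means), against 0.05 and 0.19 for the mean of Cd79a, Cd79b and Ms4a1. Its r with the T cell gene Trbc2 (0.53, and 0.41 for deviations) and with the macrophage gene Lyz2 (0.53 and 0.46) were about as high.

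Of 34 genes of the T cell receptor and of T cells, 28 were tested. Of these 28, 9 were lower under DRF and 1 was higher (median -0.11), where 16.1% of all genes were lower and 17.2% higher. By the rule, the 5 of highest level were Fyn (-0.12 ± 0.04, limma adjusted p = 0.027), Thy1 (-0.03 ± 0.07), Lcp2 (-0.08 ± 0.06), Trac (0.80 ± 0.14, adjusted p = 2e-05) and Cd247 (-0.11 ± 0.08), of which Thy1, Lcp2 and Cd247 did not pass. Trac, the constant part of the T cell receptor alpha chain, went against the others, at 6.76 CPM under DRF and 3.84 CPM under NRF. The beta chain constant genes Trbc1 (-0.17 ± 0.06, adjusted p = 0.028) and Trbc2 (-0.25 ± 0.06, adjusted p = 0.00076) were lower, as were Cd28, Icos, Zap70, Bcl11b and Il2ra (-0.16 to -0.25), all chosen after their values were seen. Cd3d, a further CD3 chain, likewise chosen, was at -0.10 ± 0.05 (adjusted p = 0.079).

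Of 12 genes of NK and cytotoxic cells 6 were lower and 0 higher (median -0.15), among them Ccl5 and Gzma (-0.29 ± 0.09, limma adjusted p = 0.0082). Of 10 genes of lymphocyte homing and naive cells 2 were lower and 0 higher, namely Ptprc (-0.21 ± 0.05, adjusted p = 0.0022), which encodes CD45 of all leukocytes, and Coro1a (-0.19 ± 0.05, adjusted p = 0.0052), both chosen after their values were seen. S1pr1 and Klf2, the highest of that list, did not pass. Of 12 macrophage genes 7 were lower and 0 higher (median -0.20; sums of 1083 to 2515 CPM under NRF and 883 to 1704 CPM under DRF), with Lyz2 (-0.22 ± 0.09) and C1qa (-0.16 ± 0.07) short of the threshold at adjusted p = 0.061 and 0.069. Of 11 genes of dendritic cells and antigen presentation 5 were lower and 0 higher, among them the 2 of highest level, H2-Aa (216 CPM under NRF, 150 CPM under DRF; -0.58 ± 0.07, adjusted p = 5.5e-09) and H2-Ab1 (-0.56 ± 0.06). These list counts stand beside 16.1% of all genes lower under DRF and were not tested for enrichment, and the part of other leukocytes in Ighm, Cd4 and Cd3g was not tested.

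In the other lists, 4 of 8 mesothelial genes were lower and 0 higher (median -0.23), and of 8 adipocyte genes 2 were lower and 2 higher (median -0.03). Among all genes tested, 16.1% were lower and 17.2% higher under DRF. Of 8 genes of red cells and neutrophils 6 were higher under DRF and 0 lower (median 0.46). The 2 of highest level, the globin genes Hba-a1 (0.52 ± 0.13, limma adjusted p = 0.0012) and Hbb-bs (0.48 ± 0.13, adjusted p = 0.0040), were among the 6. Of 6 genes of germinal centres and proliferation 4 were higher and 1 lower, with Mki67 at 24.8 CPM under DRF and 11.5 CPM under NRF (0.98 ± 0.18, limma adjusted p = 3.4e-05) and Bcl6, a factor of germinal centre B cells, not called (-0.0043 ± 0.17). Of 6 thymus genes 3 were in the table, where Ptcra and Dntt, named after their values were seen, had at most 6 and 10 reads and Cd1d1 did not pass (0.14 ± 0.07).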

How the data were processed

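Poly(A) RNA of VAT from 56 mice was sequenced as paired reads on an Illumina NovaSeq. The submitters' processing notes name HISAT2 2.0.5, featureCounts 1.5.0-p3 and mm10. The deposited table is named TPM, but the authors' values were found to be a score, log2(CPM + 1) divided by gene length, so they were entered as a score and not as TPM. Whole reads were recovered from the steps between low values: 99.9880% of 1262138 values up to 10000 reads came out whole within 0.02, and 4 genes that could not be resolved were left out. From these, log2(CPM + 1) was fitted in limma 3.58.1 (R 4.3.3; eBayes with trend) over 17282 genes with a mean of at least 10 reads, with regimen and a 24-h cosine and sine per regimen, or with 14 group means for single time points. P-values were adjusted by Benjamini-Hochberg over all genes, at a threshold of 0.05. Rhythms were tested in Python 3.11.15 by JTK_CYCLE and by Lomb-Scargle, and the p-values of both were merged by Fisher's method. Member pairs were tested with 100000 permutations.

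Each library is 1 mouse, but mice of 1 group may have shared a cage. The replicate numbers name different mice: over 364 same-numbered pairs the deviations from group means had a median r of 0.04 (-0.62 to 0.55), so no block was used. In simulated data for the regimen comparison over 17282 genes, limma called 96 of 100 genes changed 1.5-fold and 100 of 100 changed 2-fold, with 13 others. The members and gene lists were chosen with earlier results of these data known. Outside the members, the text names the 8 genes most correlated with the B mean and with the T mean, the 5 of highest CPM in the B and T cell lists, the tested lymph node genes and the 2 of highest CPM in other lists. Any other name is marked as chosen after its values were seen. Some genes that the rule or the lists hold are not reported here. Alternatives covered scaling, pseudocount, voom, the filter, left-out libraries, a replicate block, a lymph node covariate and the deposited values themselves.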

Additional observations from a re-analysis of the deposited data

Results flagged for a closer look

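Each of the 126 groups of 4 mice, 14 for each of the 9 genes, was searched for a mouse far from the other 3, and 7 such mice were found. Chance gives about 1 in 20 groups, or 6.3 of 126, so 7 is close to what chance gives. Cd79b was 8.90 CPM in NRF ZT8 replicate 2, against 2.49 to 2.83 CPM in the other mice of that group, and 2.97 CPM in NRF ZT20 replicate 1, against 1.46 to 1.64 CPM. Cd3g was 1.0 CPM in DRF ZT0 replicate 3, against 0.585 to 0.633 CPM, and 0.865 CPM in DRF ZT20 replicate 1, against 0.425 to 0.488 CPM. Cd8a was lowest in DRF ZT0 replicate 3, at 0.0836 CPM against 0.318 to 0.369 CPM. It was highest in DRF ZT24 replicate 2, at 0.692 CPM against 0.19 to 0.253 CPM, and in NRF ZT0 replicate 1, at 0.835 CPM against 0.295 to 0.334 CPM. DRF ZT0 replicate 3 was thus the mouse furthest up for Cd3g and furthest down for Cd8a within its group. In NRF ZT8 replicate 2, Cd79a ranked 1 of 56, Ms4a1 ranked 2 and Ighm ranked 11. Its summed macrophage genes ranked 1, its lymph node genes 2 and its mesothelial genes 4, and their part in this was not tested.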

How the results depend on the processing

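The number of the 9 genes lower under DRF was 1 to 3 when each replicate number was left out, and 4 without DRF ZT8 replicate 1. Among all 17282 genes the number lower moved too, from 2788 to 1872 without replicate 2 and 1871 without replicate 3. It was 3258 without DRF ZT8 replicate 1. Cd3g lost its call without replicate 2 (-0.17) and replicate 3 (-0.13), as did Cd4 (-0.18 and -0.19), and fewer mice were then fitted. Lck gained one without the DRF libraries ZT8 replicate 1 (-0.19) or ZT8 replicate 1 and ZT0 replicate 4 (-0.20). With replicate numbers left out, Cd79a ran from -0.261 to 0.0562 and Ms4a1 up to 0.0412 (both above 0 without replicate 2), and with the lymph node covariate Cd79a turned to 0.0423, Cd79b to 0.00992 and Ms4a1 to 0.144, none called. Calls at single time points numbered 1 to 4 with a replicate number left out, 3 with no filter, and 5 without DRF ZT8 replicate 1 (Lck at ZT24 gained). Without replicate 2 only Ighm at ZT4 stayed called, and without replicate 4 Ighm at ZT4 and ZT20. Without replicate 1, Ighm at ZT0 was lost and Lck at ZT24 gained, where 1501 of all 17282 genes were called lower. Without replicate 3, Cd3g at ZT4 was lost and Lck at ZT8 was called higher under DRF (0.57), as were 2265 of all genes. With the covariate 5 were called, with Ighm at ZT0 lost and Cd79a (0.73) and Cd79b (0.60) gained as higher under DRF at ZT0, as were 1489 of all genes. Genes with a rhythm difference numbered 0 to 1 with a replicate number left out and 2 with the covariate. Among all 17282 genes, 7246 to 8127 passed that test with a replicate number left out and 9209 with the covariate. Under NRF the rhythm test called 0 to 1 genes with a replicate number left out (Lck or Cd79a). The limma F test called 2 under NRF and 1 under DRF, with or without the replicate block. Of all genes, the rhythm test called 22.4% to 29.3% under NRF with a replicate number left out, against 37.0% in the main fit. With the block, the F test called 8796 of 17282 genes under NRF and 7187 under DRF. The replicate block gave the same 3 level calls and changed no other call, and 17 of 56 libraries were closest to a mouse of their own number. The r of the B mean with the T mean moved to -0.0752 for deviations from group means, -0.191 in DRF and 0.336 in NRF. That of the B mean with the lymph node genes moved to 0.692 for deviations, and that of the T mean to 0.251 without the 2 farthest libraries, -0.412 in DRF and 0.216 in NRF. The cause of these shifts was not tested. No library passed the limit for the sum of Cxcl13 and Chst4, so leaving such libraries out gave no value. Depth limits Cd3e and Cd8a most, both at 3 reads in their lowest library.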

Other observations

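The genes compared with the members here were chosen after their values were seen. Nkg7, a granule protein of NK and cytotoxic T cells, had r of 0.68 with the mean of the 5 T genes over 56 libraries (0.80 in DRF, 0.37 in NRF and 0.66 for deviations from group means), against -0.02 with the mean of Cd79a, Cd79b and Ms4a1 and -0.00485 with Ighm. Within the regimens the r of Nkg7 with Ighm was -0.42 in DRF and -0.16 in NRF, and -0.28 for deviations from group means. Nkg7 was 1.29 CPM under NRF and 1.00 CPM under DRF (-0.21 ± 0.07, limma adjusted p = 0.022). Jchain had r of 0.58 with the T mean (0.50 for deviations). These are descriptions over libraries that share depth and tissue makeup.

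Ighm also had r of 0.58 with H2-Aa, of antigen presentation, and 0.56 with Csf1r, of macrophages (0.30 and 0.42 for deviations from group means). Csf1r was 149 CPM under NRF and 120 CPM under DRF (-0.33 ± 0.06, limma adjusted p = 2.4e-05).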
